A study of Homo sapiens with 19 samples.

Results

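SNORD48 is a box C/D small nucleolar RNA, and the rRNA nucleotide assigned to it in the deposited site table is 28S-1868, numbered along 28S rRNA. It was found as the single entry, of 120 listed sites, whose annotation names SNORD48. The site was chosen with its loss of methylation in FBL knockdown already known, so that contrast, and every contrast that shares libraries with it, is given as a description with no test.

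Box C/D small nucleolar RNAs pair with rRNA and place the methyltransferase fibrillarin (FBL) over a single nucleotide, whose ribose then receives a methyl group. Each RNA assembles with FBL and the core proteins NOP56, NOP58 and SNU13. SNORD48, also called RNU48 or U48, is widely used as a reference RNA in small RNA PCR. Its gene and that of SNORD52 lie within the non-coding host gene SNHG32, also named C6orf48, in the RefSeq annotation of GRCh38.p14.

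The 19 libraries came from Kasumi-1, a long-established line of acute myeloid leukaemia cells. In the knockdown (KD) arm, 7 groups of 2 libraries were all given doxycycline at 100 ng/ml. They were FBL KD with the FBL mutants FBLTri or FBLQua, FBL KD with wildtype FBL, FBL KD with an empty vector, FBL KD without vector, control KD with an empty vector and control KD without vector. The knockout arm held 5 single libraries: SNORD127 knockout clones C1 and C34, clone C1 with an empty vector, clone C1 with SNORD127, and a control knockout clone. These 5 libraries carry no FBL KD and have the treatment entry "no" in their labels, and each clone is a single line.

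Several limits come from the labels. The column names call the libraries titled FBLTri "Dual" and those titled FBLQua "Tri", and the titles were followed. The column names also give the 2 FBL KD libraries without vector different numbers, and those with a vector a further number. The 2 control KD libraries without vector carry different numbers in the same way. The labels do not say whether such numbers are shRNA or replicate numbers. If they number shRNAs, vector and shRNA cannot be told apart. The control knockout clone has a column name of the same form as the knockout clones, and its title was followed. The labels do not call the replicates separate cultures, and a p-value here then covers only the spread between libraries, which may be technical. FBL RNA and protein and the level of SNORD48 RNA were not analysed here, so the depth of the knockdown was not checked.

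RiboMethSeq reads ribose methylation from a gap in the ends of alkali-cut rRNA fragments, since the methyl group protects the bond beside it. The deposited measure is score C, which is 1 minus the end count beside the site over a weighted mean of the counts of 6 positions on either side. A score near 1 means a nearly complete gap, and a deposited 0 means an end count at or above that weighted mean. Libraries held 5533150 to 18835537 end counts. In replicate 2 of control KD with empty vector, 20.8% of all end counts lay at position 15 of 28S, whereas the top position of any other library held 2.56 to 4.90%. No replicate pair agreed within sampling noise, with a chi-square of 18.6 to 731.4 per position.

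The SNORD48 site carried a clear methylation gap in control cells, and its score was close to 0 after FBL KD. Score C at 28S-1868 was 0.0414 and 0.0904 in FBL KD without vector, against 0.759 and 0.695 in control KD without vector. With the empty vector it was 0.0222 and 0.0742 in FBL KD, against 0.781 and 0.789 in control KD. Every FBL KD library lay far below every control KD library, and the groups did not overlap in either background.

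The 4 FBL KD libraries averaged 0.0571 ± 0.0309 and the 4 control KD libraries 0.756 ± 0.0426 (SD, n = 4 each). The difference was -0.661 without vector and -0.737 with the empty vector, and -0.699 over both, the largest loss of the 120 sites. Since the site was selected on this difference, these values support nothing further. Lower scores were the rule in this contrast, in which limma called 86 of the 120 sites lower, or 71.7%. The median score over the 120 sites averaged 0.856 in FBL KD libraries and 0.974 in control KD libraries. When library medians were made equal, the difference at 28S-1868 was -0.563 without vector and -0.599 with the empty vector.

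**Figure D1:**
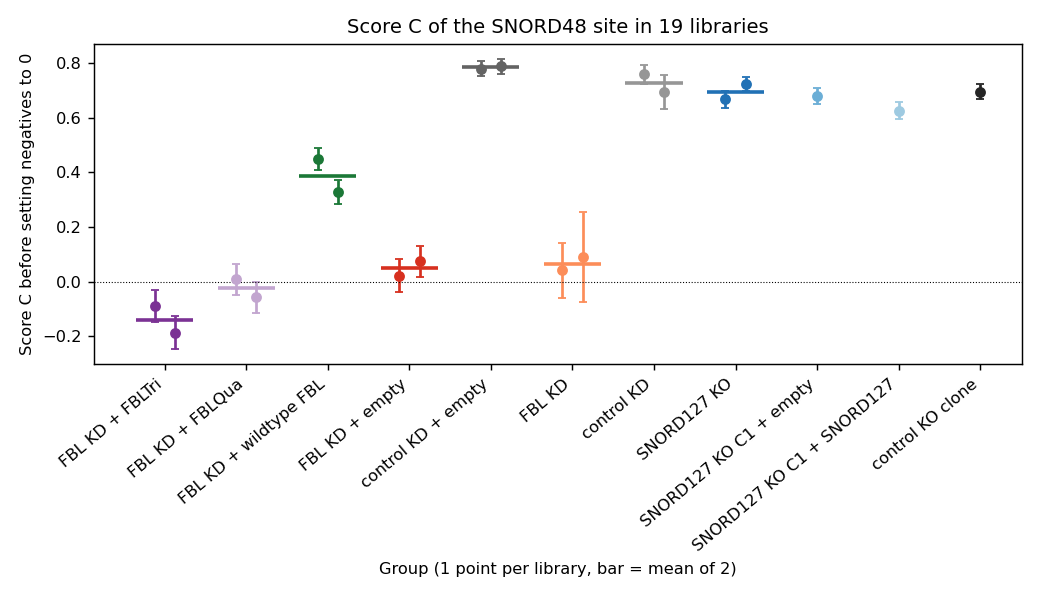
Score C of 28S-1868 before negative values were set to 0 (vertical axis) in each of 19 libraries (points) by group (horizontal axis), with 95% counting intervals as error bars and group means as horizontal lines. The mutant and FBL KD libraries lie near or below 0, the wildtype FBL libraries at 0.450 and 0.328, and the control and SNORD127 libraries between 0.627 and 0.789.

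Wildtype FBL, put back into FBL KD cells, was accompanied by a partial score at the site. Score C was 0.450 and 0.328 in FBL KD with wildtype FBL, against 0.0222 and 0.0742 in FBL KD with empty vector. Both wildtype libraries stood above both empty-vector libraries, by 0.341 on average, and below both control KD libraries with empty vector, by 0.396 on average. The 2 wildtype libraries differed by more than their counting error, with intervals of ± 0.0404 around 0.450 and ± 0.0433 around 0.328.

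The share of the loss regained was 46.2% at 28S-1868. It was 37.9% without wildtype FBL replicate 1 and 54.5% without replicate 2. Among 56 sites that lost at least 0.1 with the empty vector, the median share was 67.9%, and the SNORD48 site was 12th from the lowest.

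With either FBL mutant the deposited score of the site was at or near 0. Score C was 0 in both FBLTri libraries, and 0.00773 and 0 in the FBLQua libraries, against 0.450 and 0.328 with wildtype FBL. The deposited scores are cut at 0, and before that step they were -0.0907 and -0.187 in FBLTri and 0.00773 and -0.0573 in FBLQua. A negative value means that the position held more fragment ends than the weighted mean of its 12 flanking positions. No mutant library reached the level of a wildtype library.

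A score near 0 did not mean that the dip in end counts had gone. No library of unmethylated rRNA is in the series, so how much of the dip is methylation was not tested. With flanks of 2 positions instead of 6, score C was 0.232 and 0.163 in FBLTri and 0.262 and 0.247 in FBLQua, against 0.594 and 0.513 in wildtype FBL. By the same flanks it was 0.309 and 0.333 in FBL KD, against 0.820 and 0.782 in control KD, and 0.275 and 0.312 in FBL KD with empty vector, against 0.838 and 0.853 in control KD with empty vector. The order of the groups was kept, with the mutant and FBL KD libraries further from 0 than in the deposited score. The read position of FBLTri replicate 1, for instance, held 1488 ends, below the 1931 and 1969 of the positions beside it.

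Mutant and wildtype FBL libraries are not part of the knockdown contrast on which the site was selected, so their differences were tested. Score C was lower by 0.389 in FBLTri than in wildtype FBL (limma, change -0.389, SE 0.0400, 95% interval -0.480 to -0.297, adjusted p = 3.85e-05, lower in 2 of 2 libraries). In FBLQua the change was -0.385 (limma, SE 0.0400, 95% interval -0.476 to -0.293, adjusted p = 4.56e-05, lower in 2 of 2 libraries). Over the alternatives the adjusted p of limma ran from 2.03e-05 to 0.00963 for FBLTri and from 3.61e-05 to 0.0107 for FBLQua. Such calls were common: by the same threshold, an adjusted p under 0.05, 62.5% of the 120 sites were lower in FBLTri and 59.2% in FBLQua.

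The mutants were not called different from each other at the site. The change in FBLTri against FBLQua was -0.00387 (limma, SE 0.0400, 95% interval -0.0954 to 0.0876, adjusted p = 1.00), in a comparison that called 8.33% of sites. The deposited scores are cut at 0, so this comparison could not show a difference below 0. With scores not set to 0 the change was -0.114 (limma adjusted p = 0.278). Before the cut, both FBLTri libraries, at -0.0907 and -0.187, lay below both FBLQua libraries, at 0.00773 and -0.0573. Against the empty vector, the change was -0.0482 in FBLTri and -0.0444 in FBLQua, or -0.187 and -0.0730 with scores not set to 0. These differences are given as values, since the empty-vector libraries are part of the knockdown contrast. Across the 120 sites, 9 had a mean score under 0.05 over the 4 mutant libraries.

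The raw fragment ends showed where the signal changed. The count for 28S-1868 is read at the next position, 28S-1869, which held 378 and 128 ends in FBL KD without vector, against 186 and 94 in control KD without vector. It held 1136 and 1081 ends in FBL KD with empty vector, against 278 and 213 in control KD with empty vector. It held 1488 and 1667 ends in FBLTri and 1313 and 1442 in FBLQua, against 749 and 983 in wildtype FBL. These are raw counts, and the libraries differ in depth, so the share of the surrounding window is given next.

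In the 25 positions from 12 before to 12 after the site, the read position took 5.78 and 5.56% of ends in FBL KD without vector, against 1.43 and 1.92% in control KD without vector. With the empty vector it took 5.90 and 5.64% in FBL KD, against 1.38 and 1.31% in control KD. It took 6.66 and 7.26% in FBLTri and 6.10 and 6.47% in FBLQua, against 3.54 and 4.16% in wildtype FBL. The lowest bound among the 4 FBL KD libraries was 4.66% and the highest among the 4 control KD libraries was 2.35% (exact Clopper-Pearson 95% intervals). Reads carry no molecular identifiers, so these intervals cover counting error only.

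**Figure D2:**
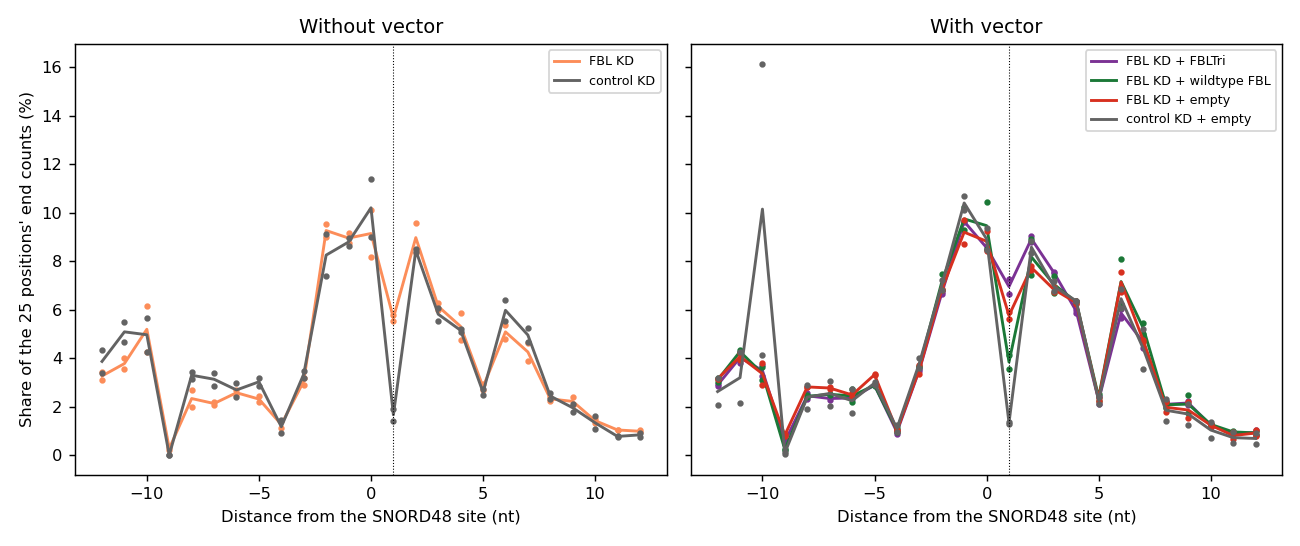
Share of the end counts of 25 positions (vertical axis, percent) by distance from 28S-1868 (horizontal axis, nucleotides), without vector (left) and with vector (right), with lines for means of 2 libraries and points for single libraries. At the dotted line, the read position 1 nucleotide after the site, FBL KD libraries hold 5.56 to 5.90% and control KD libraries 1.31 to 1.92%, and wildtype FBL lies between them at 3.54 and 4.16%.

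Within this window the read position changed more than the 23 positions that are not read positions of a listed site. For FBL KD against control KD this restates the selection, since score C sets the count at the read position against its flanks. Without vector, the mean share at the read position was 3.39 times as high in FBL KD as in control KD, whereas the ratio at 23 other positions ran from 0.681 to 1.34. With the empty vector the ratio was 4.29, and elsewhere it ran from 0.332 to 1.32. The 0.332 came from 28S-1858, where replicate 2 of control KD with empty vector held 2623 ends. These ranges leave out 28S-1859, the read position of the neighbouring site 28S-1858, which held 23 and 5 ends in FBL KD, against 1 end in each control KD library, so that no ratio is given for it. With the empty vector its ratio was 8.08, from 171 and 152 ends in FBL KD and 32 and 8 in control KD.

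In wildtype FBL against empty vector the ratio at the read position was 0.667, outside the 0.863 to 1.18 of the other positions. In FBLTri against wildtype FBL it was 1.81, outside 0.819 to 1.09. In FBLQua against wildtype FBL it was 1.63, outside 0.913 to 1.12. In all 5 comparisons the read position therefore lay beyond the highest or lowest of the 23 other positions. The left-out 28S-1859 changed more, with ratios of 0.290 for wildtype FBL, 2.34 for FBLTri and 2.38 for FBLQua in the comparisons above. FBL KD against control KD is the contrast on which the site was selected, and wildtype FBL against empty vector shares libraries with it.

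As counts over all rRNA positions, the same change did not pass the threshold. The log2 fold change of ends at 28S-1869 was 0.88 in FBLTri against wildtype FBL (edgeR, SE 0.225, adjusted p = 0.344). It was 0.69 in FBLQua against wildtype FBL (edgeR, SE 0.225, adjusted p = 1.00). DESeq2 gave adjusted p = 0.0525 for FBLTri and 0.524 for FBLQua. Of 6538 positions tested, edgeR called 0.352% in FBLTri and 0.0765% in FBLQua. This test scales by the whole library, while score C compares a position with its own flanks.

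The vector background is given as values only, since its libraries belong to the knockdown contrast on which the site was selected. Score C was 0.781 and 0.789 in control KD with empty vector, against 0.759 and 0.695 in control KD without vector. The difference was 0.0579, and it was 0.0899 without control KD replicate 1 and 0.0259 without control KD replicate 2. The FBL KD difference with the vector minus that without it was -0.0756. It was -0.108 without control KD replicate 1 and -0.0435 without control KD replicate 2, the extremes over the 8 libraries left out singly, and -0.0367 with library medians made equal.

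Loss of SNORD127, a guide of another site, was not accompanied by a detected change at 28S-1868. Score C was 0.668 in knockout clone C1, 0.724 in clone C34 and 0.680 in clone C1 with empty vector, against 0.627 in clone C1 with SNORD127 and 0.696 in the control clone. The values overlapped, and the change was 0.0289 (limma over 19 libraries, SE 0.0373, 95% interval -0.0549 to 0.113, adjusted p = 1.00), in a comparison that called 0.833% of sites. It was -0.00589 without clone C1 with SNORD127. Clone C1 gave libraries to both sides, and the fit had no term for clone. The spread behind the interval came mostly from the knockdown arm, so it does not measure the spread between clones. The 5 libraries averaged 0.679 ± 0.0360 (SD, n = 5), with 1.68 to 2.38% of the window's ends at the read position.

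Ordered by mean score C, the 11 groups ran from FBLTri (0 in both libraries), FBLQua (0.00387 ± 0.00547), FBL KD with empty vector (0.0482 ± 0.0367) and FBL KD (0.0659 ± 0.0347) to wildtype FBL (0.389 ± 0.0863). Above these came the 4 groups of the knockout arm at 0.627 to 0.696, control KD (0.727 ± 0.0453) and control KD with empty vector (0.785 ± 0.00574; SD, n = 2 for each group of the knockdown arm). Wildtype FBL lay more than its own SD from its neighbours on either side. Among the 4 lowest groups, neighbours overlapped or lay within counting error of each other by the deposited score. Before the cut at 0, FBLTri replicate 2, at -0.187 with a counting interval of ± 0.0601, had an interval below those of both FBLQua libraries. Both control KD libraries with empty vector lay above both without it. The control clone and the SNORD127 knockout clones lay in or next to the range of control KD, and clone C1 with SNORD127, at 0.627, was the lowest of the knockout arm and has no spread of its own.

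The score at 28S-1868 was less precise than most. Its SD within groups, pooled over groups, was 0.0414, against a median of 0.0169 over all sites, and 19 sites had a higher one. This pool took the SNORD127 knockout clones C1 and C34 as a pair. It also counted FBLTri with an SD of 0, since both its scores were cut at 0. The 95% counting interval had a half-width of 0.0260 to 0.164. The widest belonged to replicate 2 of FBL KD without vector, where the flanks averaged 140.7 ends.

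The site was among the lower-scoring ones without FBL KD, ranking 16th to 20th from the lowest of 120 in the 4 control KD libraries and 6th to 10th in the 4 FBL KD libraries. In a comparison chosen after the values were seen, 14 other sites had a control level within 0.1 of it. Their median change in FBL KD was -0.141, against -0.0853 over all 120 sites. The nearest in size were 28S-2863 at -0.562 and 28S-4020 at -0.412, and at the other end 28S-2527 changed by 0.0268.

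**Figure D3:**
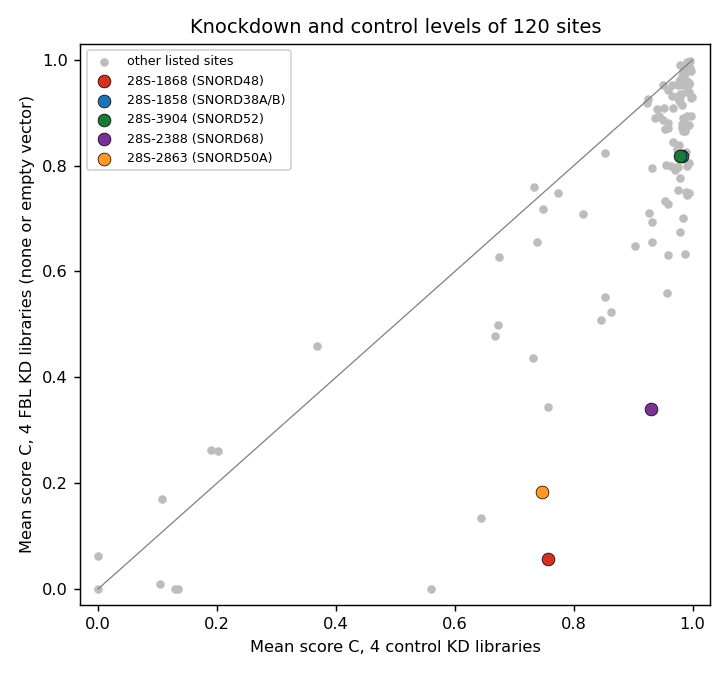
Mean score C of 120 sites in the 4 FBL KD libraries without FBL re-expression (vertical axis) against the 4 control KD libraries (horizontal axis), each point a site, with the line of equal values. 28S-1868 lies at 0.0571 against 0.756, below 28S-2863 and 28S-2388, and the points of 28S-1858 and 28S-3904 nearly coincide near the top right.

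The nearest listed site, 28S-1858, is assigned to SNORD38A and SNORD38B and lies 10 nucleotides upstream. Its read position, 28S-1859, is outside the flanks of 28S-1868, but the flanks of both sites include 28S-1863, 28S-1864 and 28S-1865. 28S-1858 had a nearly complete gap in control cells and lost less. Score C was 0.891 and 0.929 in FBL KD, against 0.998 and 0.994 in control KD, and 0.707 and 0.747 in FBL KD with empty vector, against 0.952 and 0.988 in control KD with empty vector. The change over both backgrounds was -0.164 (limma, SE 0.0193, adjusted p = 5.16e-05). It fell by 0.116 in FBLTri against wildtype FBL (limma adjusted p = 0.00523) and by 0.117 in FBLQua (limma adjusted p = 0.00542). On a logit scale these 2 calls were lost (limma adjusted p = 0.0584 and 0.0572), as they were with library medians made equal (limma adjusted p = 0.513 and 0.614).

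Of the 3 listed 28S sites within 250 nucleotides of 28S-1868, 2 fell in FBL KD, against 71.7% of all sites, and 2 rose in wildtype FBL against empty vector, against 57.5% of all sites. Their median change in FBL KD was -0.164. 28S-1747, assigned to SNORD73A, fell by 0.246 in FBL KD (limma, SE 0.0114). It fell by 0.210 in FBLTri and by 0.201 in FBLQua against wildtype FBL.

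The uncalled site, 28S-1731, has a guide named SNORA52 in the table. It changed by -0.0305 in FBL KD (limma adjusted p = 0.262), by -0.0117 in wildtype FBL against empty vector, and by -0.0434 in FBLTri and -0.0121 in FBLQua against wildtype FBL. Without replicate 1 of FBL KD the first of these was -0.0536 and passed the threshold (limma adjusted p = 0.0464), and with library medians made equal it was 0.0876.

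28S-3904, the site of SNORD52, whose gene shares the host gene of SNORD48, kept most of its score. Score C was 0.830 and 0.741 in FBL KD, against 0.985 and 0.966 in control KD, and 0.853 and 0.852 in FBL KD with empty vector, against 0.981 and 0.983 in control KD with empty vector. Every FBL KD library was below every control KD library, by 0.160 over both backgrounds (limma change -0.160, SE 0.0160, adjusted p = 1.62e-05). It rose by 0.0905 in wildtype FBL against empty vector (limma adjusted p = 0.00844), but changed by -0.00530 with library medians made equal. Against wildtype FBL the change was -0.0507 in FBLTri (limma adjusted p = 0.0799) and -0.0532 in FBLQua (limma adjusted p = 0.0689). Both passed the threshold in fits on the compared groups alone, on a logit scale and with flanks of 2 positions, and both turned positive with library medians made equal.

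The next largest losses in FBL KD were at 28S-2388 and 28S-2863. 28S-2388, assigned to SNORD68, changed by -0.590 in FBL KD (limma, SE 0.0175). Its 2 backgrounds stood apart, with 0.555 and 0.558 in FBL KD and 0.0945 and 0.151 in FBL KD with empty vector, against 0.907 to 0.943 in control KD libraries. At 28S-1868 both backgrounds were near 0. 28S-2863, assigned to SNORD50A, changed by -0.562 (limma, SE 0.0341), to 0.237 and 0.366 in FBL KD and 0.0615 and 0.0722 in FBL KD with empty vector, against 0.701 to 0.774 in control KD libraries.

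In the mutants these sites diverged. 28S-2388 scored 0 in both FBLTri libraries and 0.00492 and 0.0433 in FBLQua, against 0.579 and 0.606 in wildtype FBL. 28S-2863 scored 0.244 and 0.276 in FBLTri and 0.266 and 0.205 in FBLQua, against 0.453 and 0.364 in wildtype FBL. The change of 28S-2863 was -0.149 in FBLTri (limma adjusted p = 0.0247) and -0.173 in FBLQua (limma adjusted p = 0.0125). The call for FBLTri was lost without FBLTri replicate 1 (-0.133), FBLTri replicate 2 (-0.165) or wildtype FBL replicate 1 (-0.104). That for FBLQua was lost without FBLQua replicate 2 (-0.143) or wildtype FBL replicate 1 (-0.128). Both were lost with library medians made equal.

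**Figure D4:**
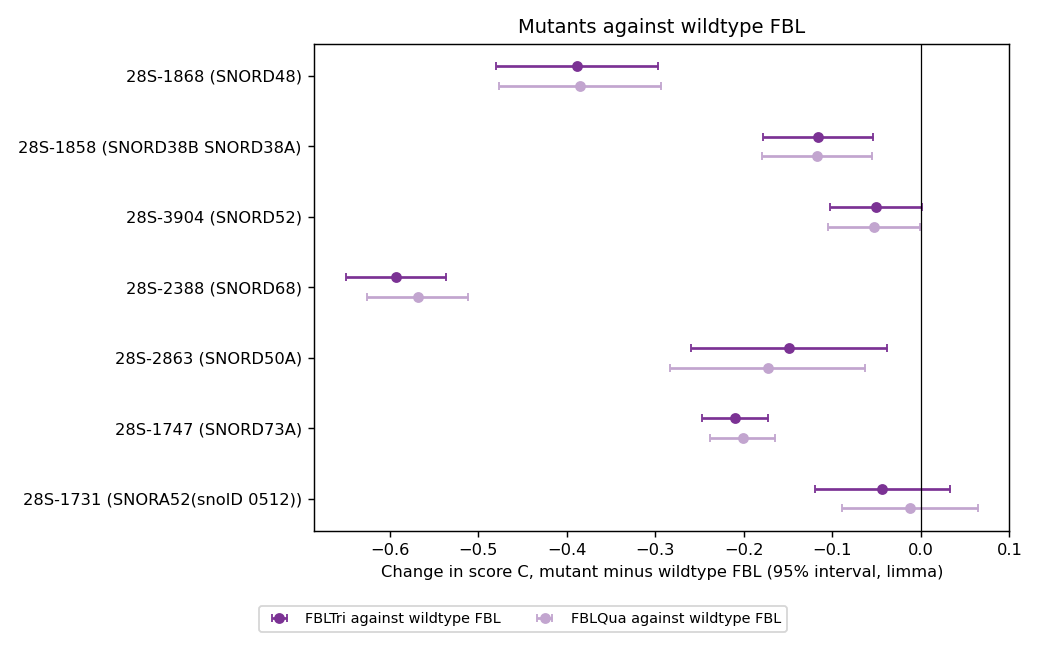
Change in score C in FBLTri or FBLQua against wildtype FBL (horizontal axis, points with 95% intervals from limma) at 28S-1868 and 6 other sites (vertical axis). At 28S-1868 the changes are -0.389 and -0.385, at 28S-2388 they are -0.593 and -0.568, and the intervals of the remaining sites lie closer to 0 than those of 28S-1868.

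Many sites followed the pattern of 28S-1868 across the 19 libraries. The 5 with the highest Pearson correlation of score C were 5.8S-75 of SNORD96A and SNORD96B (r = 0.981), 28S-3787 of SNORD10 (r = 0.977), 28S-4590 of SNORD72 (r = 0.975), 28S-4020 of SNORD102 (r = 0.974) and 28S-4032 of SNORD75 (r = 0.962). The median over the other 119 sites was 0.818, and 36 were above 0.9. All these values share the same libraries and the same FBL manipulation, so they describe likeness and carry no test.

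The 5 sites differed in size of change, given here with no test because the same libraries chose them. 28S-4020 and 28S-3787 changed most in FBL KD, by -0.412 and -0.398, followed by 5.8S-75 at -0.305 and 28S-4590 at -0.255. 28S-4032 changed by -0.109, a direction that turned with library medians made equal, at 0.00919. Against wildtype FBL the changes in the mutants ran from -0.265 for 28S-3787 in FBLQua to -0.101 for 28S-4032 in FBLQua, and 28S-4032 changed by 0.000954 in FBLQua with library medians made equal.

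SNORD48 belongs to a group of box C/D RNAs sold as references for small RNA PCR. The other 13 names on that list were all found, at 16 sites. In FBL KD 15 of the 16 were lower and none was higher, against 71.7% of all sites lower, with a median change of -0.153 against -0.0853 over all sites. In wildtype FBL against empty vector 14 were higher, against 57.5% of all sites, with a median of 0.123 against 0.0533. Against wildtype FBL, 14 were lower in FBLTri, against 62.5% of all sites, and 15 in FBLQua, against 59.2%. With library medians made equal these 4 counts were 9, 5, 6 and 6. The shares of all sites in that setting are not given here, so these counts cannot be set against them.

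The largest losses on that list were at 28S-2388, 28S-2811 of SNORD95 (limma change -0.327, SE 0.0151) and 5.8S-75. The site that did not pass in FBL KD was 18S-1703 of SNORD43, which changed by -0.00503 (limma adjusted p = 0.470). In wildtype FBL against empty vector, 18S-166 of SNORD44 changed by 0.0285 and 28S-3866 of SNORD47 by 0.00744, and neither passed. In FBLTri against wildtype FBL the uncalled sites were 28S-4197 and 28S-4198, both of the SNORD58 family, with -0.0247 and -0.0729, and in FBLQua it was 18S-428 of SNORD68, with -0.0371. With library medians made equal each of these 6 changes had the opposite sign. The uncalled sites are named because they complete the counts, and were picked after their values were seen.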

How the data were processed

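Per the submitters' processing notes the tools include cutadapt and Bowtie2, with versions, reference and settings not given in the sources used here. Per the labels' protocols, 100 ng of RNA was cut in alkali at 95 °C for 12 min. The authors deposited end counts, whole numbers and not normalized, for 7000 rRNA positions, and score C as a fraction for 120 sites. The score was recomputed from the counts, as 1 minus the count at the next position over the mean of the weighted means of 6 flanking positions on each side (weights 1 to 0.5), with negatives set to 0. It matched the deposited value in 2280 of 2280 pairs within 1e-09. Sites up to 12 positions apart share flanking positions, and depth changes the precision of the score. Its 95% counting intervals treat ends as Poisson counts.

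Score C was fitted with limma 3.58.1 in R 4.3.3 over the 14 knockdown libraries, or all 19 for SNORD127, using group coefficients and a variance trend; tests were two-sided, with p-values adjusted over 120 sites (Benjamini-Hochberg, threshold 0.05). End counts were tested with edgeR 4.0.16, quasi-likelihood, adjusted over 6538 positions, with DESeq2 1.42.0 as an alternative. Both tests were tried on simulated data. Tables and plots were made in Python 3.11.15 with pandas 2.3.3, matplotlib 3.10.9, scipy 1.17.1 and numpy 2.4.6.

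The 2 vector comparisons at 28S-1868, planned as tests, are given as values because the site was selected on their libraries. The member and the lists were chosen with earlier results of these data known. Named sites were those within 12 nucleotides, the SNORD52 site, the 5 most correlated, the next 2 in loss, and up to 6 of each list. Of the list of PCR references, the 3 with the largest loss were taken, plus those not called. Alternatives were fits on the compared groups alone, a replicate block, no variance trend, a logit scale, sites with low flanking counts left out, flanks of 2 positions, scores not set to 0, equal library medians and each library left out. For the counts they were DESeq2 size factors and no filter on low counts. A single flank was added after seeing the data. Replicate numbers were checked for pairing and did not pair the libraries throughout.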

Additional observations from a re-analysis of the deposited data

How the results depend on the processing

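The tested differences at 28S-1868 between each mutant and wildtype FBL kept their direction and their call in 14 of 14 alternatives each, at -0.450 to -0.328 for FBLTri and -0.446 to -0.324 for FBLQua with single libraries left out. Differences that are only described moved by more than the replicate spread in these cases. With flanks of 2 positions, FBL KD against control KD was -0.480 without vector and -0.552 with it, wildtype FBL against empty vector was 0.260 and against control KD with empty vector -0.292, and FBLTri against empty vector was -0.0956. With library medians made equal, FBL KD against control KD was -0.563 and -0.599, and wildtype FBL against empty vector 0.245. With scores not set to 0, FBLTri and FBLQua against empty vector were -0.187 and -0.0730. Leaving out single libraries gave -0.693 to -0.629 and -0.763 to -0.711 for FBL KD, 0.280 to 0.402 and -0.457 to -0.335 for wildtype FBL, -0.0742 to -0.0222 for FBLTri and -0.0703 to -0.0184 for FBLQua against empty vector. SNORD127 lost against present ran from -0.00589 to 0.0636. With equal medians the PCR reference counts were 9, 5, 6 and 6. Of the 3 sites within 250 nucleotides, 2 were called lower in each mutant against wildtype FBL. The share of all sites was 62.5% in FBLTri and 59.2% in FBLQua. With equal medians the count within 250 nucleotides was 1 in each mutant, as it was on a logit scale. The shares of all sites in these 2 settings are not given here, so the counts cannot be set against them.

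Also with equal medians, changes in FBL KD turned to 0.00919 at 28S-4032, 0.0876 at 28S-1731 and 0.113 at 18S-1703. In wildtype FBL against empty vector they turned to -0.00530 at 28S-3904, -0.00323 at 28S-4032, -0.0673 at 18S-166 and -0.0884 at 28S-3866. In FBLTri against wildtype FBL they turned to 0.0462 at 28S-3904, 0.0535 at 28S-1731, 0.0722 at 28S-4197 and 0.0240 at 28S-4198. In FBLQua they turned to 0.0483 at 28S-3904, 0.000954 at 28S-4032, 0.0894 at 28S-1731 and 0.0644 at 18S-428. With single libraries left out, 18S-1703 in FBL KD ran from -0.0110 to 0.000990, and 28S-1731 from -0.0379 to 0.0145 in wildtype FBL and -0.0383 to 0.0141 in FBLQua. The cause was not tested. Making medians equal takes the median change out of every site by construction.

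Replicate numbers did not pair the libraries throughout. Deviations of same-numbered libraries correlated between -0.226 and 0.694 over 21 pairs of groups, with 12 over 0.1. The 0.694 was between FBLQua and wildtype FBL, which form a tested comparison. The fit with the replicate block changed no call at 28S-1868, with -0.389 for FBLTri and -0.385 for FBLQua. Depth limits the FBL KD libraries without vector most, where the score's counting interval reached ± 0.164, and 2 libraries a group limit every comparison.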
